A study of Mus musculus with 15 samples.

Results

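Oxidative phosphorylation is described here through 98 of the 46679 genes in the deposited table. The members were every protein-coding gene whose GENCODE symbol named a mitochondrially encoded protein, a subunit of Complex I, II, III or IV, cytochrome c or a subunit of the ATP synthase: 13 lie on the mitochondrial chromosome and 85 in the nucleus. The rule reads gene names and no measured value, although the pathway was picked for description with earlier results of these data known. RNA was sequenced from brain tissue of C57BL/6 mice in 5 groups of 3 mice. Naïve brain came from mice without a tumor, for which an age of 6 to 8 weeks is given as well. The CT2A, GL261 and 005 groups had received 100000 cells of the named GFP-Fluc line in the brain and the Mut3 group 500000 cells, at an age of 6 to 8 weeks, and tumors were taken at the end stage. All 4 lines had been transduced with GFP and firefly luciferase. CT2A and GL261 are chemically induced gliomas, CT2A with wild-type p53 and GL261 with mutant K-ras and p53. The 005 line carries activated H-ras and AKT on a p53+/− background, and Mut3 comes from inactivation of NF1 and p53. Each model is 1 line, so that the 3 tumors of a group are 3 mice and not 3 lines.

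The respiratory chain carries electrons from NADH through Complex I, or from succinate through Complex II, to Complex III and, by way of cytochrome c, to Complex IV, which reduces oxygen. Complexes I, III and IV pump protons across the inner mitochondrial membrane, and the ATP synthase uses the return flow to make ATP. Complex II is encoded in the nucleus alone, whereas the other complexes and the ATP synthase combine subunits of both genomes. In normal brain, neurons depend heavily on this pathway.

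Libraries held 3105070 to 13130030 counts. The 14 neuronal marker genes summed to 5893 to 7584 CPM, counts per 1000000 of the scaled library total, in naïve brain. They summed to 331 to 1419.5 CPM in CT2A, 1246 to 2477 in GL261 and 153 to 261 in Mut3. In 005 the sum was 828, 325 and 4695, so that replicate 3 was nearer to naïve brain than to the other two. The 8 proliferation genes showed the same library apart, with 215 CPM in 005 replicate 3 against 1268 and 1315 in the other two and 111 to 194 in naïve brain. Counts of called members in 005 are therefore given with and without that library, and single values of 005 include it unless stated. In these bulk samples, fewer cells of a type and less RNA per cell cannot be told apart.

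The first question was how much of each library came from the members of each genome. The 13 mitochondrial messages made up 13.3, 7.93 and 13.04% of all counts in the 3 naïve libraries. They made up 3.97, 2.29 and 2.22% in CT2A, 2.42, 5.14 and 2.99% in GL261 and 3.48, 3.82 and 3.87% in Mut3, every one of these 9 libraries below the lowest naïve library. In 005 they took 3.97, 2.397 and 9.97%, with replicate 3 inside the naïve range and the other two below it. The 2 mitochondrial ribosomal RNAs, which are not members, took 10.7, 7.004 and 8.46% in naïve brain and 1.90, 2.14 and 1.49% in Mut3.

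The 85 nuclear members made up 3.82, 3.55 and 4.54% of counts in naïve brain and 2.53, 2.20 and 2.34% in CT2A, where all 3 libraries lay below naïve brain. Mut3 lay inside the naïve range with 4.002, 4.07 and 4.20%. GL261, with 3.50, 3.33 and 3.04%, lay just below the naïve range, and 005, with 3.01, 2.86 and 3.91%, overlapped it through replicate 3. The mean log2 CPM of the mitochondrial members exceeded that of the 82 nuclear members that passed the filter on low counts by 3.55, 3.14 and 3.28 in naïve brain. The same difference was 2.71, 2.05 and 1.74 in CT2A, 1.16, 2.54 and 2.08 in GL261, 1.45, 1.57 and 1.61 in Mut3 and 2.23, 1.77 and 3.20 in 005. All tumor libraries except 005 replicate 3 lay below the lowest naïve library on this measure, which is a description with no test.

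**Figure D1:**
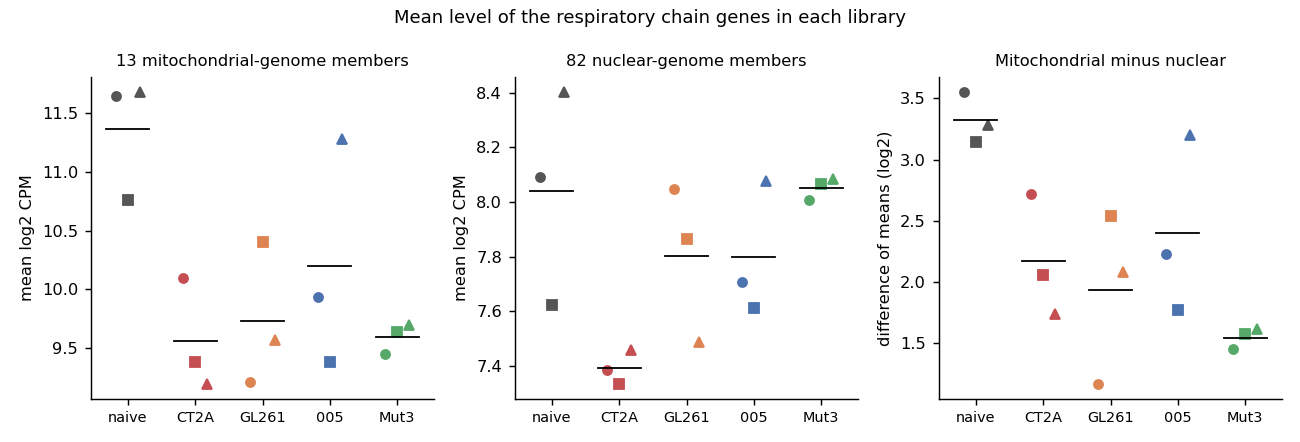
Mean log2 CPM of the 13 mitochondrial members (left) and of the 82 nuclear members that passed the filter (middle), and the first minus the second (right), in each of the 15 libraries. Points are libraries, with circle, square and triangle for replicates 1, 2 and 3, and the bar is the mean of the group. On the right, 005 replicate 3 at 3.20 is the one tumor library above the lowest naïve value of 3.14.

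Each gene was then tested with edgeR's quasi-likelihood test on the estimated counts, with Benjamini-Hochberg adjustment over the 17481 genes tested, and a gene was called higher or lower at an adjusted p under 0.05. All 13 mitochondrial members were tested. In CT2A, 12 were called lower than in naïve brain, with a median log2 fold change over the 13 of −2.08, against 21.7% of all tested genes called lower and a median of −0.039 over all tested genes. In Mut3 all 13 were called lower (median −1.94), where 21.0% of all genes were and the median over all genes was 0.11. In GL261 11 were called lower (median −1.64), where 8.45% of all genes were and the median over all genes was −0.081. In 005 none was called (median −1.08), against 1.13% of all genes called lower and a median of 0.011. In 005, 8 of the 13 had an unadjusted p under 0.05, and DESeq2 also called 0.

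Leaving out 1 library moved these counts by over 1.5 times in GL261 and 005. Without 005 replicate 3, 12 of the 13 were called lower in 005 and the median was −1.91, where 19.3% of all genes were called lower and their median was −0.067. The member left uncalled was mt-Nd4l. Without naïve replicate 1, GL261 replicate 1 or GL261 replicate 3, the GL261 count was 0 in each case, where 2.95%, 0.777% and 3.10% of all genes were called lower, and it was 1 without naïve replicate 3 (4.92%). Neuronal markers were lower as well: 13 of 14 were called lower in CT2A (median log2 fold change −3.04), 14 of 14 in Mut3 (−5.62), 1 of 14 in GL261 (−2.05) and 1 of 14 in 005 (−1.76; 14 of 14 and −3.48 without replicate 3), and none of the 14 was at 0 in any library. Of 8 oligodendrocyte genes 3 were called lower in CT2A, 6 in Mut3 and 0 in GL261 and 005, or 5 in 005 without replicate 3. Of 7 astrocyte genes 4 were called lower in CT2A, 3 lower and 1 higher in Mut3, and 1 higher in GL261. In 005 0 astrocyte genes were called, or 4 lower without replicate 3. Of 12 macrophage and microglia genes 8 were called higher in each of CT2A, GL261 and 005. In CT2A 1 of them was called lower, and in Mut3 5 were. Of all tested genes 20.3%, 15.1%, 11.8% and 19.3% were called higher in CT2A, GL261, 005 and Mut3. The shares called lower were 21.7%, 8.45%, 1.13% and 21.0% in that order. The part of these markers in the mitochondrial differences was not tested.

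Complex I takes 7 of its subunits from the mitochondrial genome, all of them in the part embedded in the membrane. mt-Nd2 read 3203, 2293 and 3403 CPM in naïve brain. It read 803, 439 and 350.3 in CT2A, 552, 1291 and 731 in GL261, 456, 562 and 642 in Mut3 and 894, 624 and 2627 in 005. All CT2A, GL261 and Mut3 libraries were below the lowest naïve library, and in 005 replicate 3 was not. As a log2 fold change this was −2.48 ± 0.51 (SE, adjusted p = 0.00277) in CT2A and −2.42 ± 0.51 (SE, adjusted p = 0.00231) in Mut3. GL261 gave −1.79 ± 0.50 (SE, adjusted p = 0.021) and 005 −1.10 ± 0.49 (SE, adjusted p = 0.142), or −2.03 ± 0.42 (SE, adjusted p = 0.00204) without replicate 3.

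mt-Nd1, mt-Nd4, mt-Nd5 and mt-Nd6 had log2 fold changes of −2.18, −2.45, −2.28 and −2.08 in CT2A, and all were called lower there, in GL261 and in Mut3. mt-Nd6 is the one protein-coding gene on the other strand of the mitochondrial chromosome, and its value in Mut3 was −1.77 ± 0.49 (SE, adjusted p = 0.011). mt-Nd4l differed least in 005: 425, 364 and 605 CPM there lay within the range of the 689, 349 and 508 CPM of naïve brain in every library. In CT2A it read 272, 183 and 159.5 CPM, in GL261 93.7, 291 and 205 and in Mut3 197, 244 and 260.3. Its log2 fold change was −0.15 ± 0.38 (SE, adjusted p = 0.809) in 005 and −1.33 ± 0.39 (SE, adjusted p = 0.0149) in CT2A.

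mt-Nd3, a small membrane subunit, was the exception in CT2A. It read 78.1, 85.9 and 119.8 CPM in naïve brain and 188, 176 and 147 in CT2A, with every CT2A library above every naïve one. The row read 21.3, 47.8 and 34.3 in GL261, 13.3, 13.2 and 21.4 in Mut3 and 17.6, 16.2 and 102 in 005. Its log2 fold change in CT2A, 0.85 ± 0.56 (SE, adjusted p = 0.236), did not pass the test, and that in Mut3 was −2.56 ± 0.59 (SE, adjusted p = 0.00403). The row has a near-identical copy: of the 31-base words of mt-Nd3, 98.1% also occur in Gm28438, a pseudogene on chromosome 1, and 344 of 345 aligned bases were identical in the GENCODE M21 transcripts. The first 28 bases of both are shown because they hold the 1 difference, T3C, counted from 1 at the 5′ end of mt-Nd3 and in capitals.
mt-Nd3, chrM:9459-9486 (mm10, plus strand): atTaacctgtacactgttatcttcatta
Gm28438, chr1:24613092-24613119 (mm10, minus strand): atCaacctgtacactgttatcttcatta

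The Gm28438 row read 1235, 674 and 1529 CPM in naïve brain and 293, 65.98 and 49.99 in CT2A, lower in every CT2A library. Of the counts on both rows together, mt-Nd3 held 5.95%, 11.3% and 7.26% in the naïve libraries and 39.00%, 72.7% and 74.7% in CT2A. With both rows added, an alternative chosen after the data were seen, the log2 fold change in CT2A was −2.02 ± 0.57 (SE, adjusted p = 0.0128), and all 13 mitochondrial members were then called lower in CT2A. The sum gave −1.54 ± 0.56 (SE, adjusted p = 0.059) in GL261, −1.87 ± 0.57 (SE, adjusted p = 0.0177) in Mut3 and −0.81 ± 0.55 (SE, adjusted p = 0.317) in 005. Against GL261 and Mut3, the single row in CT2A gave 2.30 ± 0.59 (SE, adjusted p = 0.0268) and 3.41 ± 0.61 (SE, adjusted p = 0.00246), and the sum of both rows −0.48 (adjusted p = 0.627) and −0.15 (adjusted p = 0.89). The single-row value of mt-Nd3 is therefore uncertain. Copies on chromosome 1 also held 98.9% of the words of mt-Nd4l, 99.5% of those of mt-Atp6 and mt-Co2 and 99.9% of those of mt-Co3. Shares and CPM values of the members count the member rows alone.

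For Complex III the mitochondrial genome encodes mt-Cytb, cytochrome b. Its log2 fold change was −1.54 ± 0.46 (SE, adjusted p = 0.0163) in CT2A, −1.66 ± 0.46 (SE, adjusted p = 0.0208) in GL261, −1.29 ± 0.46 (SE, adjusted p = 0.0351) in Mut3 and −0.97 ± 0.45 (SE, adjusted p = 0.157) in 005. It passed in CT2A, GL261 and Mut3, although the libraries of GL261 and Mut3 overlapped naïve replicate 2.

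mt-Co1, mt-Co2 and mt-Co3 form the core of Complex IV. mt-Co3 read 60675, 25083 and 60168 CPM in naïve brain, where replicate 2 was well below the other two. It read 16240.2, 10974 and 10428 in CT2A, 11588, 22102 and 9922 in GL261, 15057, 14332 and 15314 in Mut3 and 15570.4, 9677 and 39113 in 005, and 005 replicate 3 alone among the tumor libraries exceeded a naïve one (without it, 005 gave −2.01 ± 0.43, SE, adjusted p = 0.00252). mt-Co3 had a log2 fold change of −1.95 ± 0.50 (SE, adjusted p = 0.00786) in CT2A and −1.71 ± 0.50 (SE, adjusted p = 0.0142) in Mut3. mt-Co2 gave −2.02 ± 0.40 (SE, adjusted p = 0.00225) in CT2A, −1.43 ± 0.39 (SE, adjusted p = 0.0196) in GL261 and −1.46 ± 0.39 (SE, adjusted p = 0.00915) in Mut3. Its copy Gm28661 read 10185, 7734 and 10370 CPM in naïve brain. With copies added, mt-Co2 gave −1.78 (adjusted p = 0.00414), −1.56 (adjusted p = 0.0136) and −1.33 (adjusted p = 0.0151) in CT2A, GL261 and Mut3. mt-Co1, which holds the catalytic site, was called lower in CT2A (−2.22) and Mut3 (−1.95) and missed the threshold in GL261 (−1.52 ± 0.57, SE, adjusted p = 0.063).

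mt-Atp6, which forms part of the proton channel of the ATP synthase, and mt-Atp8, a short membrane subunit, were called lower in CT2A, GL261 and Mut3. mt-Atp6 had log2 fold changes of −1.78, −1.54 and −1.46 in that order, and mt-Atp8 of −2.09, −1.47 and −1.97. In 005 they were −1.12 and −1.02, not called. Across all 5 groups the test called 13 of 13 mitochondrial members, where 52.1% of all tested genes were, and 8 without naïve replicate 3. The share of all genes called in that last run was not taken.

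Of the 85 nuclear members, 82 passed the filter on low counts. Cox4i2, an isoform of Complex IV subunit 4, had 23 counts over all 15 libraries, Cox8c, an isoform of subunit 8, had 3, and Ndufa4l2, a paralog of Ndufa4, had 121, of which 9, 55 and 33 were in Mut3. In CT2A 36 of the 82 were called lower and 0 higher, against 21.7% and 20.3% of all tested genes, and 45 had an unadjusted p under 0.05. The median log2 fold change of the 82 was −0.67. The count of 36 was 23 without naïve replicate 1, 21 without naïve replicate 3, and 22, 9 and 16 without CT2A replicate 1, 2 and 3 in turn. In those runs 16.2%, 17.8%, 19.4%, 10.3% and 11.8% of all genes were called lower, in the same order. The median of the members lay between −0.72 and −0.47 whichever library was left out.

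Mut3 had 13 nuclear members called, 5 higher and 8 lower, where 19.3% of all genes were called higher and 21.0% lower. Its median was −0.015, and the count was 8 without Mut3 replicate 1 and 7 without Mut3 replicate 2. In these 2 runs 15% and 15.1% of all genes were called higher and 15.7% and 16.7% lower. GL261 had 7 called, 2 higher and 5 lower, where 15.1% and 8.45% of all genes were, with a median of −0.32. That count was between 0 and 4 whichever of its 6 libraries was left out: 2, 3 and 4 without naïve replicate 1, 2 and 3, and 1, 3 and 0 without GL261 replicate 1, 2 and 3. In these runs, in the same order, 9.26%, 11.9%, 11.3%, 10%, 12.2% and 9.94% of all genes were called higher. The shares called lower were 2.95%, 3.04%, 4.92%, 0.777%, 4.77% and 3.10%, so that fewer of all genes were called as well. In 005 edgeR called 0 (median −0.26), where 11.8% of all genes were called higher and 1.13% lower. There, 6 members had an unadjusted p under 0.05, DESeq2 called 3, and without 005 replicate 3 edgeR called 21 of the 83 then tested, 1 higher and 20 lower, where 18.6% of all genes were called higher and 19.3% lower. The median of the 83 was −0.42. Of these 21, 10 were in Complex I, 8 in Complex IV and 1 each in Complex II, Complex III and the ATP synthase. Scaling to genes of the nuclear chromosomes alone left 19 CT2A members called, all lower, where 18.6% of all genes were called lower.

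**Figure D2:**
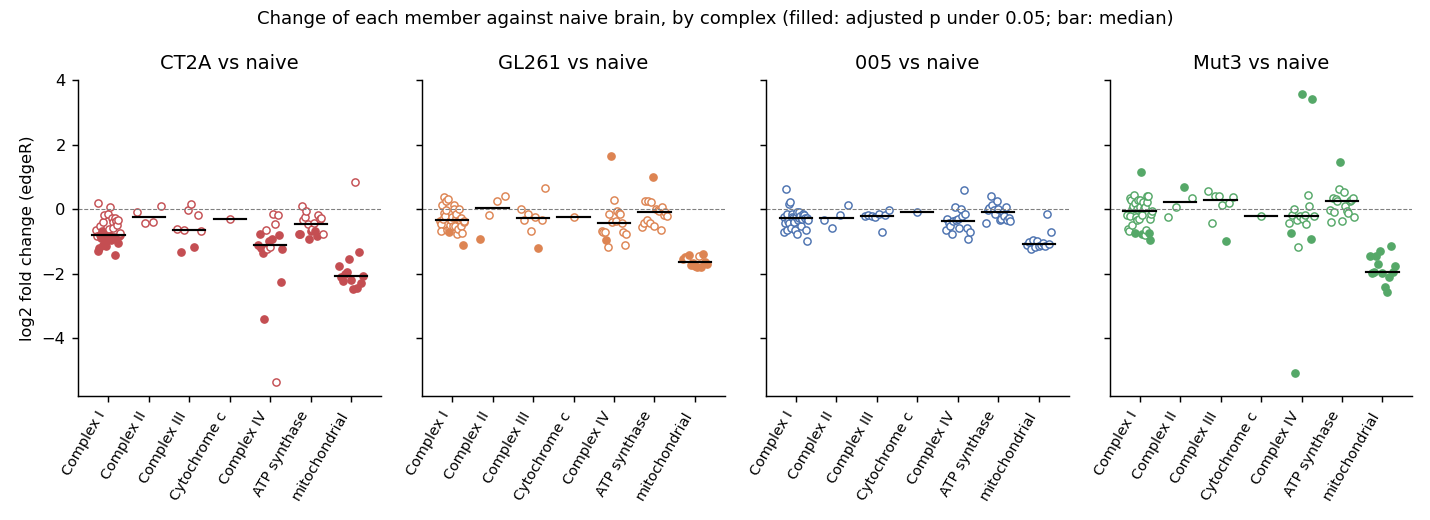
Log2 fold change of every tested member against naïve brain, one panel for each tumor, with members placed by complex and by genome. Each point is a gene, filled where the adjusted p was under 0.05, and the bar is the median of the set. The mitochondrial medians of −2.08 in CT2A, −1.64 in GL261, −1.94 in Mut3 and −1.08 in 005 lie below the nuclear medians of −0.67, −0.32, −0.015 and −0.26, and the open point lowest among nuclear Complex IV members in CT2A is Cox7b2, an isoform at 0 counts in 7 libraries.

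Complex I, the largest complex, had 35 nuclear members tested. In CT2A 18 were called lower (median −0.79), in GL261 2 were lower, in 005 none was called, and in Mut3 4 were lower and 1 higher. Beside these and the other counts by complex, 20.3% of all tested genes were called higher and 21.7% lower in CT2A. The shares higher and lower were 15.1% and 8.45% in GL261, 11.8% and 1.13% in 005 and 19.3% and 21% in Mut3. Ndufs3, an iron-sulfur protein of the peripheral arm, read 99.3, 109 and 94.1 CPM in naïve brain and 53.00, 31.8 and 28.8 in CT2A. It read 129, 88.2 and 83.3 in GL261, 67.6, 68.6 and 56.4 in Mut3 and 74.9, 65.1 and 105 in 005. All CT2A libraries were below naïve brain and all GL261 libraries above every CT2A one. Ndufs3 had a log2 fold change of −1.41 ± 0.30 (SE, adjusted p = 0.00305) in CT2A. For CT2A against GL261 it was −1.40 ± 0.30 (SE, adjusted p = 0.00988) and against 005 −1.11 ± 0.29 (SE, adjusted p = 0.0486). Without 005 replicate 3 the last of these was −0.86 with an adjusted p of 0.11.

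Ndufv1, which binds NADH, read 174, 183 and 169 CPM in naïve brain, 105, 102 and 90.8 in CT2A, 71.5, 105 and 68.8 in GL261, 102, 88.7 and 83.03 in Mut3 and 76.02, 54.3 and 137 in 005. Every tumor library was below every naïve library. Against naïve brain the log2 fold change was −0.83 ± 0.31 (SE, adjusted p = 0.0429) in CT2A and −1.10 ± 0.31 (SE, adjusted p = 0.0217) in GL261. It was −0.94 ± 0.31 (SE, adjusted p = 0.0252) in Mut3 and −0.98 ± 0.31 (SE, adjusted p = 0.0504) in 005, the last just over the threshold; without 005 replicate 3 it was −1.50 ± 0.27 (SE, adjusted p = 0.000863). Ndufb8, an accessory membrane subunit, was called lower in CT2A (−0.82, adjusted p = 0.0199) and in no other tumor. Ndufs1, an iron-sulfur subunit, had values of −0.58, −0.76, −0.53 and −0.80 in CT2A, GL261, 005 and Mut3, none of which passed the test.

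The other Complex I members called in GL261 or Mut3 were named after their values were seen. They were Ndufb11, an accessory subunit, lower in GL261 (−0.70 ± 0.22, SE, adjusted p = 0.0329), and Ndufa8, Ndufb9 and Ndufs7 lower in Mut3 (−0.73, −0.77 and −0.74). Ndufb7, an accessory subunit on the intermembrane side, was the one called higher: it read 69.6, 41.6 and 64.4 CPM in naïve brain and 154, 106 and 133 in Mut3, without overlap, a log2 fold change of 1.16 ± 0.27 (SE, adjusted p = 0.00434).

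Complex II, succinate dehydrogenase, has 4 members, and none was called in CT2A. Sdha, which binds FAD, read 256, 135 and 270.4 CPM in naïve brain and 126, 122 and 103 in GL261, a log2 fold change of −0.92 ± 0.30 (SE, adjusted p = 0.0406). Sdhc, a membrane anchor, read 243, 157 and 249 CPM in naïve brain and 358, 298 and 379.5 in Mut3, a log2 fold change of 0.67 ± 0.26 (SE, adjusted p = 0.0493). For Sdhc against Mut3 it was −1.07 ± 0.26 (SE, adjusted p = 0.0136) in CT2A and −0.85 ± 0.26 (SE, adjusted p = 0.0308) in 005. Sdhb, the iron-sulfur subunit, and Sdhd, the other anchor, were called in no tumor. Sdhb lay between −0.58 and 0.080, and Sdhd between 0.088 and 0.39.

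In Complex III 8 nuclear members were tested, of which 2 were called lower in CT2A, 1 in GL261, none in 005 and 1 in Mut3. Uqcrfs1, the Rieske iron-sulfur protein that passes electrons to cytochrome c1, was the one lower in all 3 of these tumors. It read 81.2, 116 and 75.2 CPM in naïve brain, 53.00, 34.6 and 32.6 in CT2A, 35.6, 45.6 and 36.3 in GL261, 51.6, 49.7 and 36.8 in Mut3 and 39.4, 41.05 and 85.4 in 005. All libraries of CT2A, GL261 and Mut3 were below naïve brain, and 005 replicate 3 lay within the naïve range. Uqcrfs1 had a log2 fold change of −1.18 ± 0.34 (SE, adjusted p = 0.0137) in CT2A and −1.21 ± 0.34 (SE, adjusted p = 0.0213) in GL261. It was −0.98 ± 0.34 (SE, adjusted p = 0.0314) in Mut3 and −0.71 ± 0.33 (SE, adjusted p = 0.161) in 005, or −1.24 ± 0.31 (SE, adjusted p = 0.00602) without 005 replicate 3. Uqcr11, a small subunit named after its values were seen, was the other CT2A call (−1.32 ± 0.23, SE, adjusted p = 0.00109).

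Uqcrc1, a core subunit, was called in no tumor, with values from −0.68 to 0.42. Cycs, cytochrome c itself, gave −0.31, −0.23, −0.075 and −0.21 in CT2A, GL261, 005 and Mut3 and was not called either.

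Of 17 nuclear members of Complex IV, 10 were called in CT2A, all lower, with a median log2 fold change of −1.12. GL261 had 1 higher and 1 lower, 005 none, and Mut3 2 higher and 3 lower. Cox4i1, the ubiquitous isoform of subunit 4, read 1053, 1097 and 1228 CPM in naïve brain and 613, 442 and 497 in CT2A, a log2 fold change of −1.12 ± 0.29 (SE, adjusted p = 0.00795). Cox5a, a matrix-facing subunit, was called lower in CT2A (−0.78) and Mut3 (−0.74, adjusted p = 0.0317). Ndufa4, first assigned to Complex I and now counted with Complex IV, was called lower in CT2A (−1.23 ± 0.34, SE, adjusted p = 0.0108) and in no other tumor. Cox6b1, the common isoform of subunit 6B, gave −0.63, −0.16, −0.36 and −0.33 in CT2A, GL261, 005 and Mut3, with none called.

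Several Complex IV subunits have a common isoform and one best known from heart and skeletal muscle, and these isoforms differed in direction in Mut3. Cox6a1, the common isoform of subunit 6A, read 303, 324 and 381 CPM in naïve brain, 148, 116 and 132 in CT2A, 184, 202 and 131 in GL261, 313, 333 and 358 in Mut3 and 201, 193 and 309 in 005. CT2A and GL261 lay below every naïve library and Mut3 overlapped naïve brain. Cox6a1 had a log2 fold change of −1.35 ± 0.26 (SE, adjusted p = 0.00191) in CT2A, −0.96 ± 0.26 (SE, adjusted p = 0.0173) in GL261 and −0.0042 ± 0.25 (SE, adjusted p = 0.994) in Mut3. In 005 it was −0.52 ± 0.25 (SE, adjusted p = 0.176), or −0.84 ± 0.25 (SE, adjusted p = 0.0156) without replicate 3. Cox6a2, the muscle isoform, read 10.8, 6.48 and 12.98 CPM in naïve brain, 0.611, 1.09 and 1.16 in CT2A, 6.84, 4.53 and 2.18 in GL261 and 3.50, 2.90 and 11.04 in 005. In Mut3 it read 0.448, 0.126 and 0.264, which is 4, 1 and 3 counts.

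The log2 fold change of Cox6a2 against naïve brain was −5.08 ± 0.73 (SE, adjusted p = 0.000362) in Mut3 and −3.39 ± 0.66 (SE, adjusted p = 0.00203) in CT2A, with no overlap, while GL261 (−1.17) and 005 (−0.78) were not called. Without 005 replicate 3 the value in 005 was −1.72 ± 0.58 (SE, adjusted p = 0.0315) and was called. Against Mut3 the log2 fold change of Cox6a2 was 3.91 ± 0.71 (SE, adjusted p = 0.00296) in GL261 and 4.30 ± 0.71 (SE, adjusted p = 0.00183) in 005. In brain Cox6a2 is known from parvalbumin interneurons, and of 4 genes of that cell type 4 were called lower in Mut3, 3 in CT2A and none in GL261 or 005. Without 005 replicate 3, 3 of the 4 genes were called lower in 005. Their summed level was 157 to 222 CPM in naïve brain, 9.15 to 12.98 in Mut3 and 11.9 to 61.2 in CT2A, with Syt2 at 0 in a Mut3 library. It was 53.7 to 159 in GL261 and 17.6 to 283 in 005, and its part in the Cox6a2 difference was not tested.

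Cox7a1, the muscle isoform of subunit 7A, read 9.79, 10.7 and 15.7 CPM in naïve brain and 33.1, 166 and 228 in Mut3. It read 6.11, 5.12 and 4.78 in CT2A, 23.2, 11.5 and 9.34 in GL261 and 6.70, 8.09 and 14.3 in 005. All 3 Mut3 libraries were above all other libraries, although replicate 1 was far below the other two. In Mut3 the log2 fold change was 3.56 ± 0.60 (SE, adjusted p = 0.000736). Against Mut3 the values were −4.73 ± 0.63 (SE, adjusted p = 0.000343) in CT2A, −3.28 ± 0.59 (SE, adjusted p = 0.00277) in GL261 and −3.87 ± 0.60 (SE, adjusted p = 0.00129) in 005. Cox7a2, the common isoform, was called lower in CT2A only (−0.92 ± 0.30, SE, adjusted p = 0.0255), and Cox7a2l, which takes part in joining Complex IV to Complex III, gave −0.14, −0.064, 0.0074 and −0.17 in the 4 tumors, with none called.

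Cox8b, the muscle isoform of subunit 8, read 3.26, 6.23 and 10.01 CPM in naïve brain and 57.4, 64.5 and 85.6 in Mut3, every library above all 12 others. It read 1.22, 1.55 and 1.29 in CT2A, 1.66, 4.85 and 2.30 in GL261 and 0.515, 0.724 and 8.54 in 005. The log2 fold change was 3.42 ± 0.81 (SE, adjusted p = 0.00446) in Mut3 and −2.24 ± 0.84 (SE, adjusted p = 0.0442) in CT2A. In 005 without replicate 3 it was −3.42 ± 0.59 (SE, adjusted p = 0.000633). Against Mut3 the log2 fold changes of CT2A, GL261 and 005 were −5.66, −4.54 and −4.36 (adjusted p = 0.00112, 0.00355 and 0.00374). Cox8a, the common isoform, was called lower in Mut3 (−0.91 ± 0.29, SE, adjusted p = 0.0212) and in CT2A (−0.79).

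Of 8 genes of striated muscle, 6 were tested, and in Mut3 2 were called lower and none higher, with Myh4 at 0 in every Mut3 library and Myh6 at 0 in at least 1. The median log2 fold change of the 6 was 0.45, and 4 had an unadjusted p under 0.05: Acta1 (−4.55) and Tnnt2 (−2.79), both called, and Ckm, at 4.46 ± 1.74 (SE, adjusted p = 0.0574), and Mylpf, at 1.84 ± 0.71 (SE, adjusted p = 0.0524). The summed level of the 8 was 7.74 to 46.2 CPM in Mut3 and 52.4 to 67.1 in naïve brain. The mean log2 CPM of the 6 tested was 1.53, 1.95 and 1.58 in naïve brain and 1.04, 2.57 and 0.068 in Mut3, so that Mut3 replicate 2 lay above and the other Mut3 libraries below naïve brain. The part of muscle in the Cox7a1 and Cox8b differences was not tested. Of 8 mural cell genes 2 were called higher and 1 lower in Mut3, with a summed level of 151 to 250.04 CPM against 137 to 201 in naïve brain. Cox6b2, an isoform of subunit 6B best known from testis, differed in GL261 instead: it read 7.55, 5.98 and 11.1 CPM in naïve brain and 29.2, 22.6 and 24.5 in GL261, and 2.13, 6.17 and 2.73 in Mut3. The log2 fold change was 1.63 ± 0.53 (SE, adjusted p = 0.0401) in GL261, and against Mut3 it was 2.79 ± 0.55 (SE, adjusted p = 0.00474).

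**Figure D3:**
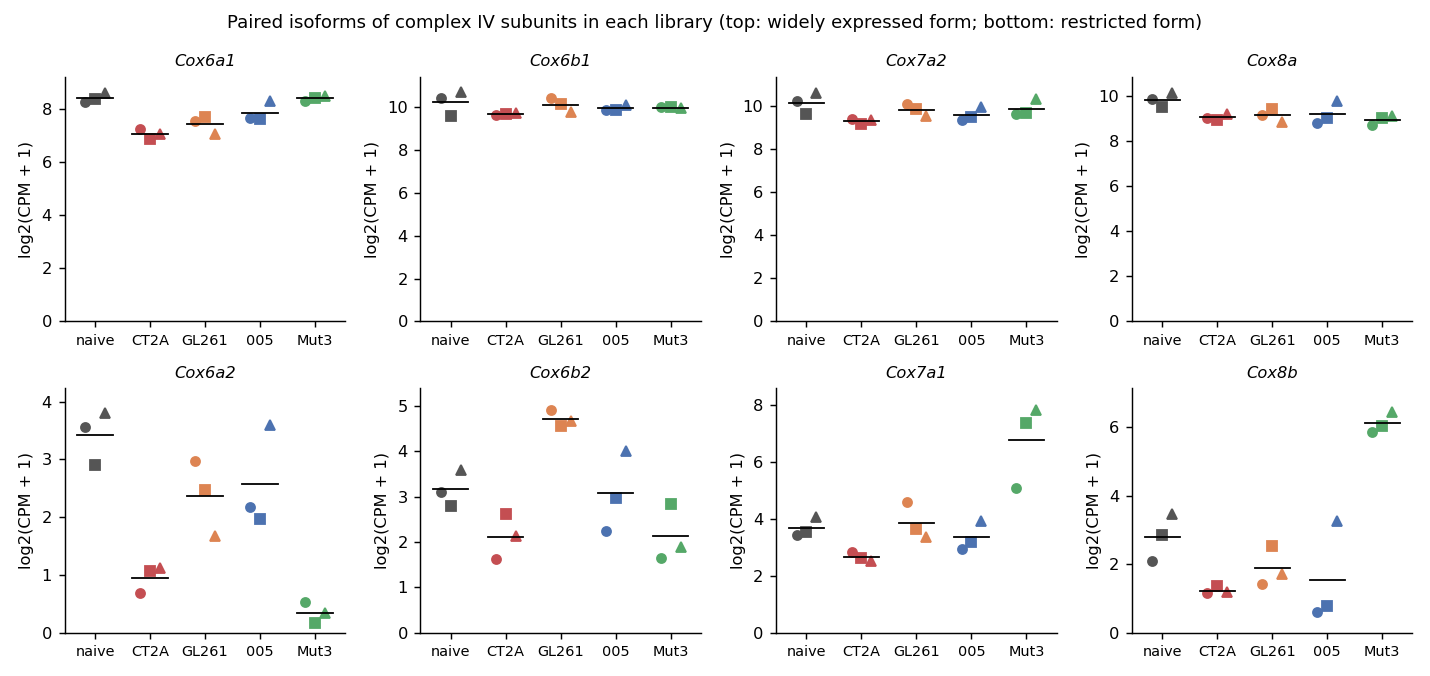
Level, as log2(CPM + 1), of the isoforms of Complex IV subunits in each library of the 5 groups. Circle, square and triangle are replicates 1, 2 and 3 and the bar is the mean of the group. In Mut3 Cox7a1 (33.1 to 228 CPM) and Cox8b (57.4 to 85.6 CPM) stand above the other groups and Cox6a2 (0.126 to 0.448 CPM) below them.

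The 150 bases before the RefSeq start sites of Cox6a1, Cox7a1 and Cox8b are shown because the Complex IV results turn on these genes: Cox6a1 was called lower in CT2A and GL261, and Cox7a1 and Cox8b higher in Mut3. Capitals mark a match to one of the searched motifs. In GENCODE M21, 23 bases of the Cox6a1 window, 27 of the Cox7a1 window and 0 of the Cox8b window lie inside the annotated span of the same gene. Overlap with other genes was not checked.
Cox6a1, chr5:115348959-115349108 (GRCm38.p6, minus strand): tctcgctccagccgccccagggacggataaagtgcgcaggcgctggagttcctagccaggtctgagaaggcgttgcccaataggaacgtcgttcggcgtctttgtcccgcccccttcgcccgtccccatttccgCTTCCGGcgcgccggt
Cox7a1, chr7:30184021-30184170 (GRCm38.p6, plus strand): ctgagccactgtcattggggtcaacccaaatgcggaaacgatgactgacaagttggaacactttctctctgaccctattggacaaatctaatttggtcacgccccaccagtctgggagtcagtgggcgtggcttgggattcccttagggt
Cox8b, chr7:140900447-140900596 (GRCm38.p6, minus strand): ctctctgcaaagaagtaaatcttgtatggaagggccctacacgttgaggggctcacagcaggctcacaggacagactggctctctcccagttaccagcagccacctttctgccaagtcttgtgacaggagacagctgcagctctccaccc
The printed Cox6a1 window holds CTTCCGG, the GABPA (NRF-2) core CCGGAAG on the other strand, and the other printed windows hold no searched motif. Promoters of 67 of the 85 nuclear members, each of 250 bases before to 50 after the start, were found in RefSeq and searched on both strands. CCGGAAG occurred in 16 (23.9%), against 9.93% of all 27025 genes with a promoter. The NRF1 core GCATGCGC occurred in 11 (16.4%, against 3.05%). The YY1 motif AAGATGGC occurred in 9 (13.4%, against 3.19%) and TATAAA in 7 (10.4%, against 15.7%). The searched promoter of Cox6a1 also holds the NRF1 core and that of Cox8b TATAAA, both not inside the printed bases. These are matches of letters and say nothing of binding.

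The ATP synthase had 17 nuclear members tested, of which 6 were called lower in CT2A, 1 higher in GL261, none in 005 and 1 higher in Mut3. Atp5a1 and Atp5b, which form the catalytic head, were called lower in CT2A and in no other tumor. Their log2 fold changes there were −0.78 ± 0.27 (SE, adjusted p = 0.0312) and −0.76 ± 0.21 (SE, adjusted p = 0.0129). The c-ring that turns with the proton flow is made of 1 protein encoded by 3 genes, and these differed. Atp5g1 was not called against naïve brain in any tumor but was lower in CT2A than in Mut3 (−1.06 ± 0.26, SE, adjusted p = 0.0161), and Atp5g3 was called lower in CT2A (−0.67 ± 0.20, SE, adjusted p = 0.0146).

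Atp5g2 read 244, 194 and 286 CPM in naïve brain, 128, 131 and 120.1 in CT2A, 368, 583 and 484 in GL261, 882, 671 and 443 in Mut3 and 215, 366 and 288 in 005. CT2A was below and GL261 and Mut3 above naïve brain in every library. Atp5g2 had a log2 fold change of −0.93 ± 0.30 (SE, adjusted p = 0.0229) in CT2A and 0.99 ± 0.30 (SE, adjusted p = 0.0301) in GL261. It was 1.46 ± 0.30 (SE, adjusted p = 0.0021) in Mut3 and 0.26 ± 0.30 (SE, adjusted p = 0.556) in 005. Between tumors, the log2 fold change of CT2A was −2.40 ± 0.31 (SE, adjusted p = 0.000294) against Mut3, −1.92 ± 0.31 (SE, adjusted p = 0.00197) against GL261 and −1.20 ± 0.30 (SE, adjusted p = 0.0401) against 005. That of 005 against Mut3 was −1.20 ± 0.30 (SE, adjusted p = 0.0138).

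This gene also has a copy, Gm10175, a processed pseudogene that holds 37.5% of its 31-base words. The copy row read 0, 0 and 0 CPM in naïve brain, 219.6, 308 and 364 in CT2A, 411, 0 and 0 in GL261, 469, 492 and 939 in Mut3 and 445, 284 and 0 in 005. It was thus at 0 in every naïve library and above 0 in 9 of 12 tumor libraries. With both rows added, the value in CT2A changed sign to 0.81 ± 0.32 (SE, adjusted p = 0.0521), no longer called, and Mut3 gave 2.43 ± 0.33 (SE, adjusted p = 0.000269). GL261 gave 1.35 ± 0.32 (SE, adjusted p = 0.00947) and 005 1.14 ± 0.32 (SE, adjusted p = 0.0297), so that the direction of Atp5g2 in CT2A depends on whether the copy is added. The sum also left CT2A against GL261 (−0.54, adjusted p = 0.313) and against 005 (−0.33, adjusted p = 0.522) uncalled. In all, 25 members had copies on another chromosome that shared at least 10% of their words, 30 copies in total.

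**Figure D4:**
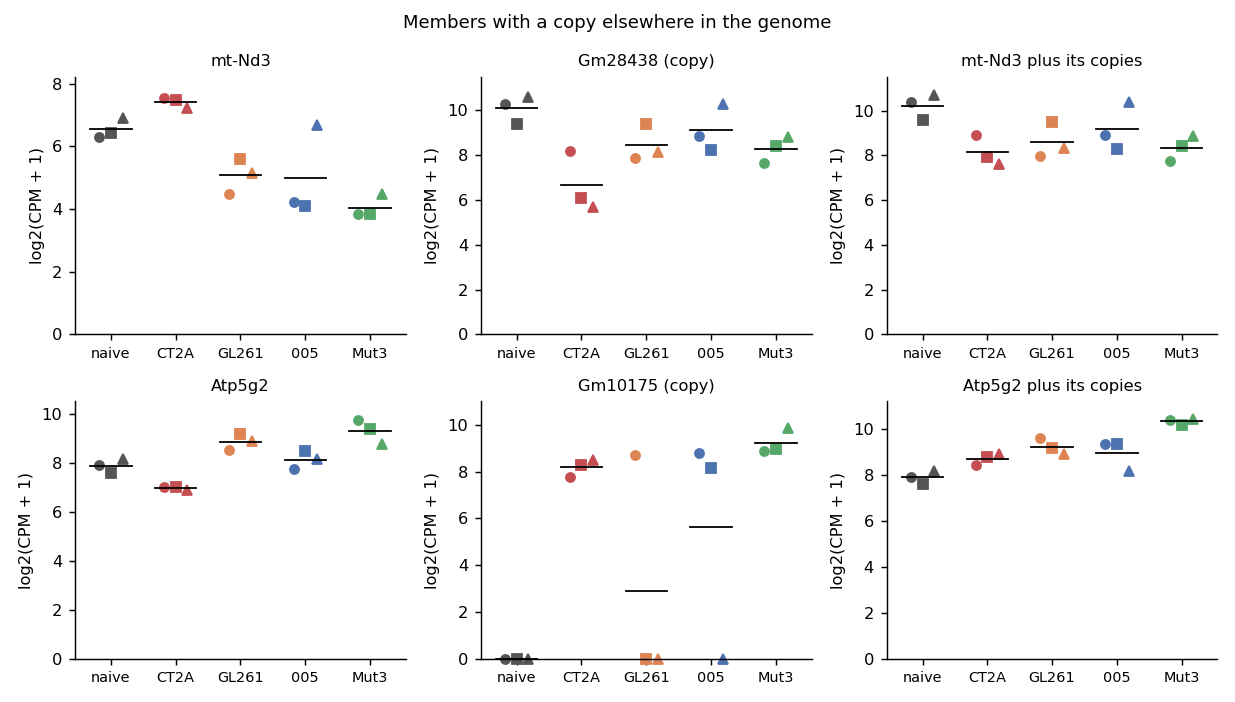
Level, as log2(CPM + 1), of mt-Nd3 and Atp5g2 in each library beside their copies Gm28438 and Gm10175 and the sum of both rows. Circle, square and triangle are replicates 1, 2 and 3 and the bar is the mean of the group. Gm10175 is at 0 in the 3 naïve libraries and between 219.6 and 939 CPM in the CT2A and Mut3 libraries.

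The 4 tumors were compared with each other in a single test over their 4 group means, in the fit of all 15 libraries, and 26.8% of all tested genes were called. Of the nuclear members 18 of 82 were called and of the mitochondrial members 2 of 13, mt-Nd3 (adjusted p = 0.00299) and mt-Nd4l (adjusted p = 0.0496). These calls count the member rows alone, and with copies added 1 mitochondrial member was called. By complex the nuclear calls were 5 of 35 in Complex I, 1 of 4 in Complex II, 3 of 8 in Complex III, 6 of 17 in Complex IV and 3 of 17 in the ATP synthase. Between pairs of tumors, nuclear members were called in 7 of 82 for CT2A against GL261 (7.96% of all genes called), 4 for CT2A against 005 (4.16%) and 19 for CT2A against Mut3 (13.2%). For GL261 against 005 edgeR called 0 (2.63%), with 5 at an unadjusted p under 0.05. The counts were 7 for GL261 against Mut3 (18.0%) and 8 for 005 against Mut3 (20.7%). Without 005 replicate 3, 2 of 83 nuclear members were called for CT2A against 005 (4.35% of all genes), 3 for GL261 against 005 (5.93%) and 14 for 005 against Mut3 (16.7%). In the test over the 4 tumors the nuclear count was 9 without CT2A replicate 2 or Mut3 replicate 3, 11 without Mut3 replicate 1 and 31 without 005 replicate 3. The same test over all 5 groups called 33 of 82 nuclear members, with 52.1% of all genes called. Leaving out 1 library gave 11 (CT2A replicate 2) to 47, with 14 without Mut3 replicate 3, 16 without Mut3 replicate 1, 18 without naïve replicate 1 or CT2A replicate 3, 19 without GL261 replicate 1 and 20 without CT2A replicate 1. The share of all genes called was not taken when a library was left out of the tests over 4 tumors and 5 groups. A change in these counts therefore cannot be told apart from one in all genes.

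Leaving out each library of the compared groups in turn separated the named calls. Of 28 named members called in CT2A against naïve brain, 12 were called in all 6 runs: mt-Nd1, mt-Nd2, mt-Nd4, mt-Nd5, mt-Nd6, mt-Co1, mt-Co2, mt-Co3, mt-Atp8, Ndufs3, Cox6a1 and Cox6a2. Of 22 in Mut3, 12 were: mt-Nd1, mt-Nd2, mt-Nd3, mt-Nd4, mt-Nd5, mt-Co2, mt-Co3, mt-Atp8, Atp5g2, Cox6a2, Cox7a1 and Cox8b. Of 17 in GL261 none was. Sdhc in Mut3, Cox6b2 in GL261, and Cox8a and Ndufv1 in CT2A were called in 0 of their 6 runs, with adjusted p up to 0.142, 0.109, 0.177 and 0.168 in that order. The 5 named differences of 005 against Mut3, for Sdhc, Atp5g2, Cox6a2, Cox7a1 and Cox8b, were called without 005 replicate 3 as well, but 3 of them, Cox6a2, Cox7a1 and Cox8b, were called in all 6 runs. Of the other named differences between tumors, those called in all 6 runs were 5 of 7 for CT2A against Mut3, 4 of 5 for GL261 against Mut3, 2 of 5 for CT2A against GL261 and 0 of 3 for CT2A against 005.

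The other genes of the pathway were taken from lists set by function. Beside the counts of these lists, 20.3% of all tested genes were called higher and 21.7% lower in CT2A. The shares higher and lower were 15.1% and 8.45% in GL261, 11.8% and 1.13% in 005 and 19.3% and 21% in Mut3. List counts near these shares do not set a list apart from other genes. Of 44 assembly factors of the complexes, CT2A had 2 called higher and 8 lower, GL261 1 and 2, 005 none and Mut3 2 and 5, with medians of −0.37, −0.058, −0.27 and −0.14. Of 4 further subunits whose symbols the rule did not take, 2 were called lower in CT2A, among them Cyc1, cytochrome c1 of Complex III (−1.77 ± 0.33, SE, adjusted p = 0.00163). The 17 genes that copy and transcribe mitochondrial DNA or handle its transcripts were mostly not called: 3 were higher and 1 lower in CT2A, 4 and 1 in GL261, none in 005 and 5 and 0 in Mut3, with medians of 0.39, 0.18, 0.091 and 0.33. Pnpt1, an RNA-degrading enzyme of mitochondria, was called higher in CT2A (2.14), GL261 (1.69) and Mut3 (2.09), and Tfam, which packages mitochondrial DNA, was called in none.

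Proteins of the mitochondrial ribosome, which translates the 13 messages, were called higher in 15 and lower in 7 of 77 in CT2A, 9 and 3 in GL261, 5 and 0 in 005 and 27 and 2 in Mut3, with medians of 0.22, 0.078, 0.19 and 0.57. Of 16 genes of the citric acid cycle, which supplies NADH and succinate, 1 was called higher and 6 lower in CT2A, 1 and 3 in GL261, 1 and 0 in 005 and 1 and 5 in Mut3. The 1 called higher in each tumor was Suclg2, the GTP-forming subunit of succinyl-CoA ligase, with values of 1.38, 1.17, 1.93 and 2.58 in CT2A, GL261, 005 and Mut3, while Sucla2, the ATP-forming subunit, was called lower in CT2A (−2.55), GL261 (−1.44) and Mut3 (−2.39). Of 20 genes of glycolysis and the hypoxia response, the route to ATP without oxygen, 8 were called higher and 2 lower in CT2A, 2 and 4 in GL261, 3 and 1 in 005 and 7 and 4 in Mut3.

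Without 005 replicate 3, the counts of these lists in 005 were 1 called higher and 9 lower of the assembly factors, 4 and 0 of the genes that handle mitochondrial DNA and its transcripts, 15 and 0 of the mitochondrial ribosome, 1 and 7 of the citric acid cycle and 4 and 4 of glycolysis and the hypoxia response. In that run 18.6% of all genes were called higher and 19.3% lower.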

How the data were processed

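RNA-seq of 15 brain or tumor samples was analysed, 3 mice in each of 5 groups taken from the sample labels. The authors aligned reads with STAR v2.4.2a to the GENCODE mouse genome, build mm10; Salmon and DESeq2 1.18.1 are also named in the submitters' processing notes, without a stated role. The authors deposited estimated counts, which were rounded to whole numbers here, and TPM values, used only in an alternative. The annotation release behind the gene identifiers is not given in the sources used here; 46201 of 46679 matched GENCODE M21.

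Genes were filtered with filterByExpr, scaled by TMM and tested with edgeR 4.0.16 (quasi-likelihood, all 15 libraries in 1 fit, R 4.3.3), with Benjamini-Hochberg adjustment over 17481 genes. SE is the absolute log2 fold change divided by the square root of F. CPM values are scaled to the TMM-adjusted library total, and shares in percent to all counts. DESeq2 1.42.0 and limma 3.58.1 on log2(TPM + 1) were alternatives. edgeR, DESeq2 and limma were run on simulated counts with 1 spread set for all genes, limma there on log2(CPM + 1). The simulation held no TPM values, so limma on TPM was not tested by it. Named were the 13 mitochondrial members, the 3 called nuclear members with the largest change in each direction per tumor among those with a mean log2 CPM of at least 3, fixed isoform sets and fixed members of each complex. Pairs of tumors were tested in the same fit, with adjustment over all genes, and values are given for named members. Copies were rows on another chromosome holding at least 10% of a member's 31-base words. The members and lists were chosen with earlier results of these data known. Nothing in the labels ties the 3 mice of a group to a shared day. In the fit of all 15 libraries, p-values rest on the spread between mice within a group, pooled over naïve brain and all tumor groups. A library that lies apart from its group therefore enters the spread used for every comparison, including those without its group. Spread between lines of a model is not measured, because each model is 1 line. One further feature of the lines' genotypes is not reported here.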

Additional observations from a re-analysis of the deposited data

Results flagged for a closer look

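The differences among the 4 tumors passed the test over their group means, in the fit of all 15 libraries (edgeR's quasi-likelihood test, adjusted over all genes), for 11 named members. In Complex IV these were Cox7a1 (adjusted p = 0.000108), Cox8b (0.000335), Cox6a2 (0.00164), Cox6b2 (0.00252) and Cox6a1 (0.00712). For the c-ring genes of the ATP synthase the adjusted p was 0.00056 for Atp5g2 and 0.0304 for Atp5g1. For Complex I it was 0.00299 for mt-Nd3, 0.0156 for Ndufs3 and 0.0496 for mt-Nd4l, and for Complex II 0.0226 for Sdhc.

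Rows outside the members that share sequence with one of them read above every naïve library in a whole tumor group. Gm10175, the copy of Atp5g2, read at least 219.6 CPM in CT2A and 469 CPM in Mut3, against 0 in naïve brain. Gm11273, which shares sequence with Cox5b, read at least 12.5 CPM in Mut3 against up to 6.49 in naïve brain. Gm15920, a processed pseudogene of Ndufa12, read 58.7, 29.6 and 2.21 CPM in 005 against up to 2.16 in naïve brain, and its lowest value was that of 005 replicate 3.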

How the results depend on the processing

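The CT2A nuclear count (36) was 19 with scaling to nuclear-chromosome genes (18.6% of all genes called lower) and 19 with no filter (10.9%). It was 21 with only the compared groups (20.6%) and 80 by limma on log2(TPM + 1) (41.2%). The count was 14 with a log2 fold threshold of 1 in size and 9 to 28 with 1 library left out. The GL261 nuclear count (7) was 13 with library size (3 higher, 10 lower), where 14.2% of all genes were called higher and 7.18% lower. It was 4 with no filter (7.6% and 5.05%) or only the compared groups (17.1% and 13.3%). DESeq2 gave 18 (17.5% and 14.9%) and limma on TPM 69 (9.82% and 36.3%). The count was 3 with the fold threshold and 0 to 4 with 1 library left out. Scaling to nuclear-chromosome genes split it 3 and 3 (16.7% and 6.53%). The 005 nuclear count (0) was 1 with copies added, where 11.8% of all genes were called higher and 1.15% lower. It was 3 by DESeq2 (15% and 5.63%), 54 on TPM (8.39% and 21.9%) and 0 to 21 with 1 library left out. The Mut3 nuclear count (13) was 6 with no filter, where 9.66% of all genes were called higher and 10.9% lower. It was 8 with only the compared groups (18.2% and 21.2%) and 49 on TPM (9.78% and 34.3%). The count was 5 with the fold threshold and 7 to 12 with 1 library left out. It split 8 and 9 with library size (18.8% and 20.3%) and 7 and 4 with nuclear-chromosome scaling (22.8% and 19%). The nuclear count over 5 groups (33) was 54 with library size, 18 with no filter, 78 on TPM and 11 to 47 with 1 library left out, and over 4 tumors (18) it was 34, 28 by DESeq2, 30 on TPM and 9 to 31. For the alternatives to these tests over 5 groups and 4 tumors the share of all genes called was not taken. Mitochondrial counts with 1 library left out were 9 to 12 in CT2A, 0 to 12 in GL261 and 005, 9 to 13 in Mut3, 8 to 13 over 5 groups and 1 to 2 over 4 tumors. On TPM 005 had 11, and over 4 tumors (2) the count was 1 on TPM, with nuclear-chromosome scaling, with copies added or with only the compared groups. On TPM the nuclear medians were −1.60, −1.09, −0.81 and −0.81 in CT2A, GL261, 005 and Mut3 and the mitochondrial medians −3.07, −2.36, −1.85 and −2.66, while the median of all genes was −0.38, −0.35, −0.23 and −0.27. Protein-coding rows held 34.1 to 45.3% of TPM. The 005 mitochondrial median was −1.91 to −0.75 with 1 library left out. The median of all genes was 0.15 in CT2A and 0.27 in Mut3 with nuclear-chromosome scaling and −0.24 in CT2A with library size. With copies added, mt-Nd3 changed sign in CT2A against naïve brain (−2.02), GL261 (−0.48) and Mut3 (−0.15), and Atp5g2 in CT2A against naïve brain (0.81). On TPM, Sdhd in CT2A (−0.81), Atp5g1 in GL261 (−0.59) and Sdhc in Mut3 (−0.11) changed sign. The causes were not tested.

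Replicate numbers are shared between groups. Of 30 same-numbered pairs of libraries 1 had a correlation of deviations from the group mean above 0.1 (range −0.33 to 0.26). Among 15 libraries 3 were closest to a library of their own number. These values gave no sign of pairing by number. They cannot exclude a shared day or batch, because the deviations also hold other differences between mice of a group. With a replicate block the counts were 4 nuclear and 7 mitochondrial members in GL261, where 13.5% of all genes were called higher and 5.82% lower. They were 21 nuclear members over 5 groups and 1 mitochondrial member over 4 tumors, for which the share of all genes was not taken. Over single named members and comparisons, the block left 175 values on the same side of the threshold and took 14 calls off it.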

Other observations

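Mitochondrial carriers and regulators of mitochondrial biogenesis were counted against naïve brain as well, with edgeR's quasi-likelihood test. Of all tested genes, 20.3% were called higher and 21.7% lower in CT2A and 15.1% and 8.45% in GL261. The shares were 11.8% and 1.13% in 005 and 19.3% and 21% in Mut3. Of 10 carriers and shuttle enzymes of the inner membrane and intermembrane space, 7 were called lower in CT2A, 1 lower in GL261, 1 higher in 005, and 2 higher and 2 lower in Mut3. Without 005 replicate 3, 1 was called higher and 5 lower in 005, where 18.6% of all genes were called higher and 19.3% lower. In Mut3 the ADP/ATP carriers went opposite ways, with log2 fold changes of −1.10 for Slc25a4 and 0.95 for Slc25a5. Of 10 regulators of biogenesis, 4 were called higher and 2 lower in CT2A, 2 higher in GL261, 1 higher in 005, and 1 of each in Mut3. Without 005 replicate 3, 2 regulators were called higher and 2 lower in 005. Myc was called higher in all 4 tumors (2.93, 2.75, 3.38 and 5.16 in CT2A, GL261, 005 and Mut3), and Esrra, a nuclear receptor that acts on respiratory genes, was called lower in CT2A (−1.79) and Mut3 (−2.18).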
